A study of Mus musculus with 8 samples.

Results

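The genes of cholesterol synthesis, uptake and storage were followed in RNA from whole adult mouse testis. They are 31 of the 56748 gene identifiers in the count table, chosen by name for their place in the pathway and not by any measured value, and all 31 had enough reads to be tested. Of these, 19 encode enzymes of synthesis (8 of the mevalonate and isoprenoid steps and 11 of the squalene and sterol steps), 5 encode the regulators of SREBP (sterol regulatory element binding protein), and 7 encode proteins of transport, efflux and ester storage. The study compared testes of Ak9-/- mice with wild-type testes, 4 libraries of each genotype. Ak9 encodes an adenylate kinase, an enzyme that exchanges phosphate among adenine nucleotides. The sources used here give no strain, no age beyond adult, no design of the Ak9 allele and no animal for each library. The p-values therefore reflect only how these libraries vary, and part of that variation may be technical.

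Cells build cholesterol from acetyl-CoA through mevalonate, isoprenoids, squalene and lanosterol. When membrane sterol is low, SCAP carries SREBP to the Golgi, where it is cleaved and released to activate the genes of synthesis and uptake, and INSIG proteins hold the complex back when sterol is plentiful. In the testis, Leydig cells turn cholesterol into testosterone and keep a reserve of it as esters, Sertoli cells take up lipid from dying germ cells, and germ cells of the later stages express some sterol enzymes, Cyp51 among them, under control that differs from that of somatic cells.

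Library totals ran from 18062780 to 24415587 counts. Ak9 itself had levels of 69.3, 116, 101 and 40.6 CPM (counts scaled to library size) for labelled knockouts 1 to 4, beside 108, 115, 122 and 107 CPM for wild types 1 to 4. The groups overlapped, with a log2 fold change of -0.47 (SE 0.25, edgeR adjusted p = 1.00), so the libraries are called labelled knockout below; the count over the whole gene cannot show whether an allele makes protein. The labelled knockouts were also more unlike each other (Spearman correlations over genes of 0.957 to 0.977) than the wild types (0.991 to 0.993). Cell content was measured by 2 scores from marker genes, none of them a sterol gene of the 31: a Leydig score from 13 markers and a spermatid score from 24 markers of round and elongating spermatids, each the mean log2 CPM minus its wild-type mean. Labelled knockouts 1 to 4 had Leydig scores of -0.42, -0.51, -0.15 and -0.99, with values between -0.06 and 0.08 in the wild types. Their spermatid scores were 0.37, 0.15, -0.71 and 0.38, with values between -0.14 and 0.07 in the wild types. Labelled knockout 3 therefore stood apart with few spermatid transcripts, and labelled knockout 4 with low levels of most Leydig markers. Sult1e1 went the other way, at 23.8 CPM in labelled knockout 4 and 7.29 to 9.15 CPM in the other labelled knockouts. Star was lowest in labelled knockout 2. Along the Leydig score, with the group held in the fit, 12 of its 13 markers rose and Sult1e1 fell. Summed epididymis markers were at 215 CPM in labelled knockout 3, 36.3 CPM in labelled knockout 4 and 4.58 to 8.07 CPM in the other libraries. Of the 215 CPM, Crisp1 gave 185 and Adam7 26.2, while Gpx5, Cst11, Bsph1 and Defb20 were at 0 in that library and Rnase10, at 3.11 CPM, was lowest there, so the list did not move as a whole. In whole tissue, fewer cells of a type and less RNA per cell cannot be told apart.

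Levels were divided by the length of all annotated exons of a gene, which can be longer than the transcript expressed. On this scale the most abundant sterol gene in the wild types was Fdft1, at 79.5 ± 4.91 CPM per kb of exon (SD, n = 4). It encodes squalene synthase, which joins farnesyl units into squalene. Lipe, the hormone-sensitive lipase that splits cholesteryl esters, followed at 52.3 ± 3.78 CPM per kb. Cyp51, the lanosterol demethylase, was at 23.7 ± 1.93 CPM per kb, and the next 3 genes did not separate beyond their spread: Sqle (squalene epoxidase) at 19.2 ± 1.08, Insig2 at 19.1 ± 0.92 and Hmgcs1 (HMG-CoA synthase) at 18.8 ± 0.74 CPM per kb. Npc2, the lysosomal carrier of free cholesterol, was at 12.1 ± 0.65 CPM per kb. At the low end stood Fdps (farnesyl diphosphate synthase) at 1.42 ± 0.22, Npc1 (the membrane partner of Npc2) at 0.715 ± 0.085 and Abcg1 (a sterol exporter) at 0.295 ± 0.052 CPM per kb. The low rank of Fdps is uncertain, since it shares 1124 exon bases with the transcript Gm43738 and has near-identical processed copies. Consecutive enzymes of one pathway differed: Lss, the lanosterol synthase that acts between Sqle and Cyp51, was at 3.03 ± 0.20 CPM per kb. Part of that gap comes from the length used, 10787 exon bases for Lss, 5546 for Sqle and 4415 for Cyp51. Before division by length, the wild-type means were 32.7 CPM for Lss, 106 for Sqle and 104 for Cyp51.

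**Figure D1:**
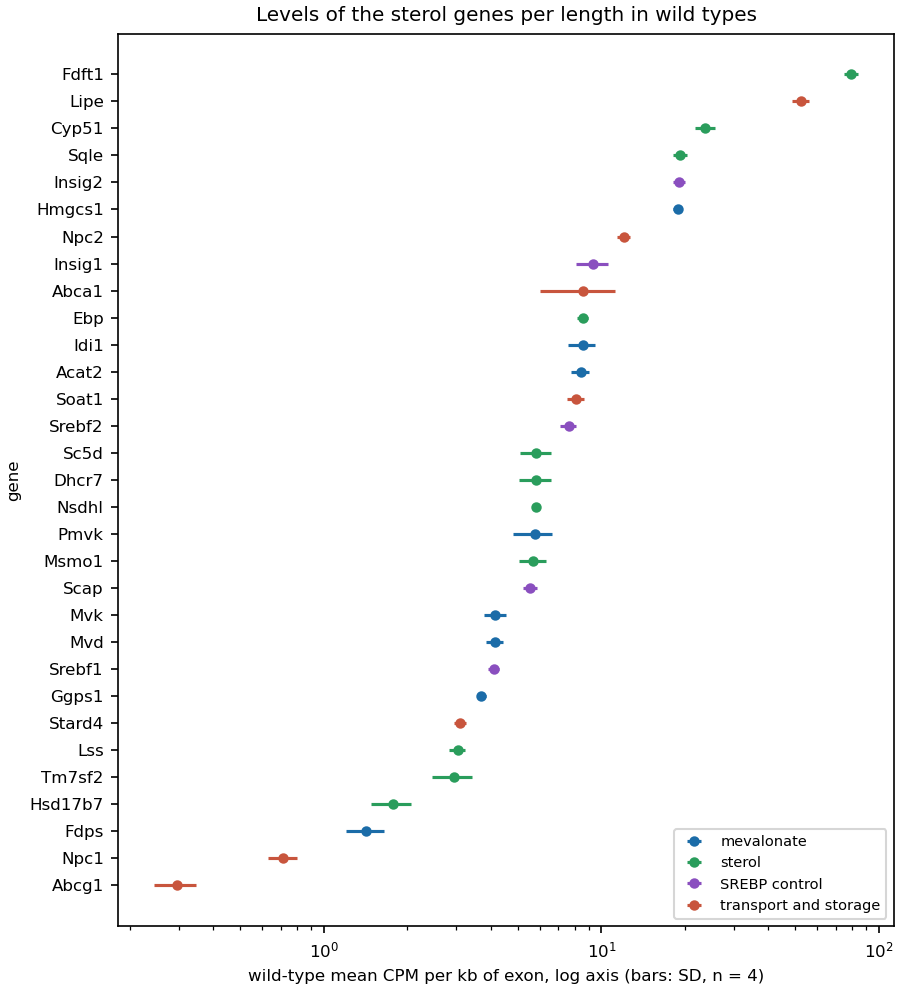
Mean wild-type level of each of the 31 sterol genes in CPM per kb of exon on a log axis, with SD over 4 libraries as bars and the gene's role as colour. Fdft1 and Lipe lie at the top, Npc1 and Abcg1 at the bottom.

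Promoter sequence was examined for 25 of the 31 genes, those with a window in the RefSeq table for build GRCm38.p6 (the 250 bases before the start of the gene). CCAAT, the box bound by NF-Y, on either strand was present in 21 of the 25 (84.0%), against 39.3% of the tested genes with a window and 37.5% of all genes with a window. A gene was counted if any of its windows held the box. TCACNCCAC, the core of a sterol regulatory element, on either strand was in 1 of the 25, Hmgcs1, against 1.23% of the tested genes. The full cAMP response element TGACGTCA was in 0 of the 25, against 2.68% of the tested genes. These are matches of letters, and no binding was measured. The 4 stretches printed here each hold a CCAAT box, in capitals (ATTGG where it lies on the other strand), and were picked because the genes go different ways across the libraries in the results that follow: Hmgcs1 at chr13:119690174-119690263 (plus strand), where capitals also mark TCACCCCAC, Cyp51 at chr5:4104698-4104766 (minus strand), Lss at chr10:76531503-76531592 (plus strand) and Soat1 at chr1:156474329-156474398 (minus strand). Each is written 5′ to 3′ on the strand of the gene and ends before its start.
Hmgcs1: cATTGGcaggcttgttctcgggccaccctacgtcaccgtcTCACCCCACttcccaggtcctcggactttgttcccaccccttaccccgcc
Cyp51: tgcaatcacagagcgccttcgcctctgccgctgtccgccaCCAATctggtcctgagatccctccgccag
Lss: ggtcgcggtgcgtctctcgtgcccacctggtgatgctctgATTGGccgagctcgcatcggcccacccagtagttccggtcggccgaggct
Soat1: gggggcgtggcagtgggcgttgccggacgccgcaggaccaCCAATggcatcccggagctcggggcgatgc
Of the genes with a CCAAT box, Cyp51 was the only one called as rising with the spermatid score. Those called as falling were Hmgcs1, Ggps1, Lss, Tm7sf2, Msmo1, Hsd17b7, Ebp, Srebf1, Npc2 and Soat1. Fdft1 and Lipe, which also rose, and Acat2, Scap and Npc1, which also fell, were not among the 21. They lacked either the box or a window. Whether box and direction go together was not tested.

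None of the 31 genes passed the test between the groups. edgeR called 0 of 31, against 4 of 21805 genes tested (0.0183%), and 0 of the 31 had an unadjusted p under 0.05, against 3.04% of the genes tested. DESeq2 and limma-voom also called 0. The 31 log2 fold changes lay between -0.38 (Dhcr7, the last reductase of the pathway, SE 0.21) and 0.28 (Abcg1, SE 0.27). In 0 of the 31 did the 2 groups fail to overlap, against 2.30% of the genes tested. For synthesis the median was -0.12, with 15 of 19 genes below 0; for SREBP control it was -0.12, with 4 of 5 below; for transport and storage it was 0.01, with 4 of 7 above; over all genes tested it was 0.01, with 10272 of 21805 below. With the Leydig score as a covariate the medians were 0.13 for synthesis, 0.12 for SREBP control and 0.32 for transport and storage. Those of synthesis and SREBP control thus changed sign. The groups did not overlap in Leydig score, so group and score cannot be told apart well in that fit. Among the Leydig markers, only Hsd3b1 and Sult1e1 had no overlap between the groups. In labelled knockout 3, Hsd3b1, Sult1e1 and Insl3 were below every wild type, and Cyp17a1, Hsd3b6 and Nr5a1 were above. The other Leydig markers of that library lay within the wild-type range. No median over all genes was computed with the Leydig score as covariate. A p that misses the threshold does not show that the levels were equal, and the SE of 0.09 to 0.27 on the log2 scale set the sizes that could be seen.

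**Figure D2:**
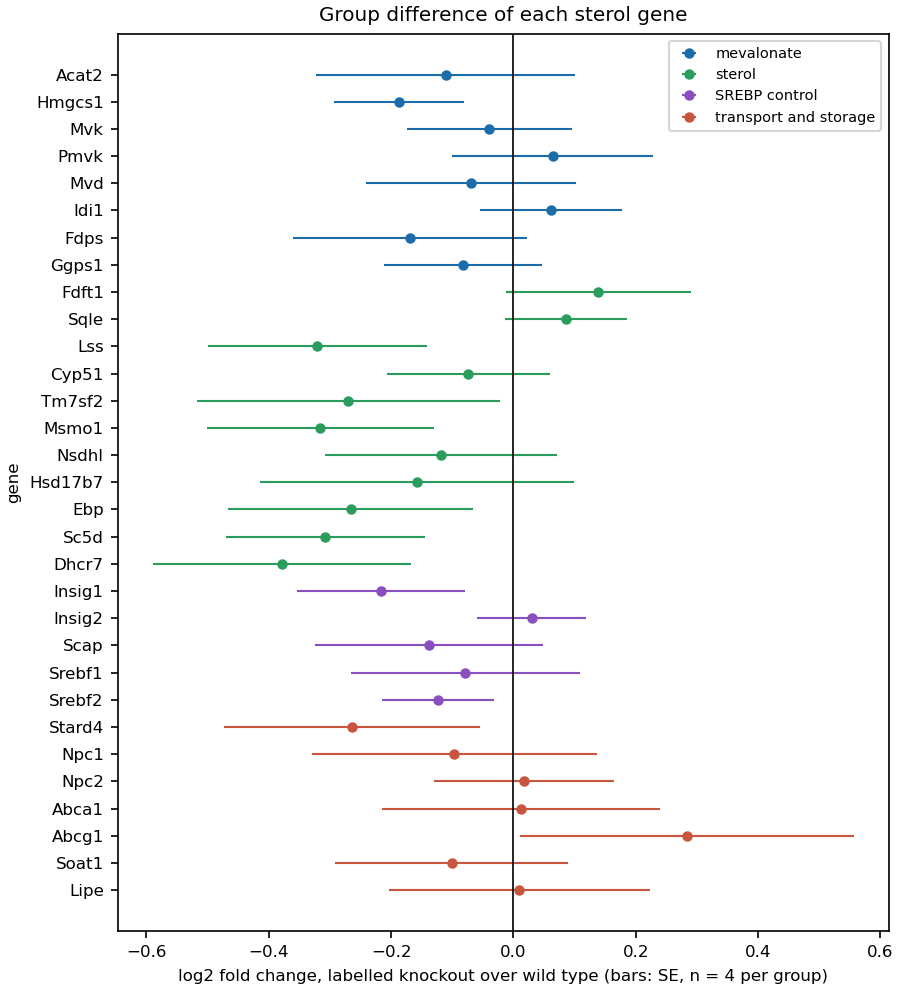
Log2 fold change of each sterol gene, labelled knockout over wild type, with SE bars (4 libraries per group) and the role of the gene as colour. The values lie between -0.38 and 0.28, and no gene passed the test.

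Behind these small group differences the labelled knockouts differed among themselves. In labelled knockout 3, 15 of the 31 genes were above all 4 wild types (33.5% of all genes tested were) and 4 were below (36.1%): Fdps, Fdft1, Cyp51 and Lipe. In labelled knockout 4, 21 were below (33.9%) and 4 were above (34.0%): Fdft1, Sqle, Nsdhl and Lipe. Labelled knockout 1 had 18 below (32.0%) and 6 above (32.5%), and labelled knockout 2 had 18 below (26.4%) and 1 above (26.3%). In all of labelled knockouts 1, 2 and 4, 12 of 31 genes (38.7%) were below all wild types, against 7.93% of the genes tested, and 0 were above, against 9.42%. These 12 were Acat2, Hmgcs1, Lss, Tm7sf2, Msmo1, Ebp, Insig1, Scap, Srebf1, Stard4, Npc2 and Soat1. With labelled knockout 3 left out, 15 of 31 genes had an unadjusted p under 0.05, 14 of them lower, against 19.0% of the genes tested, and 0 passed the threshold (0.158% of genes did). The smallest adjusted p was then 0.0554 for Lss, with a log2 fold change of -0.57 (SE 0.09). Leaving that library out was a choice made after its values were known.

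**Figure D3:**
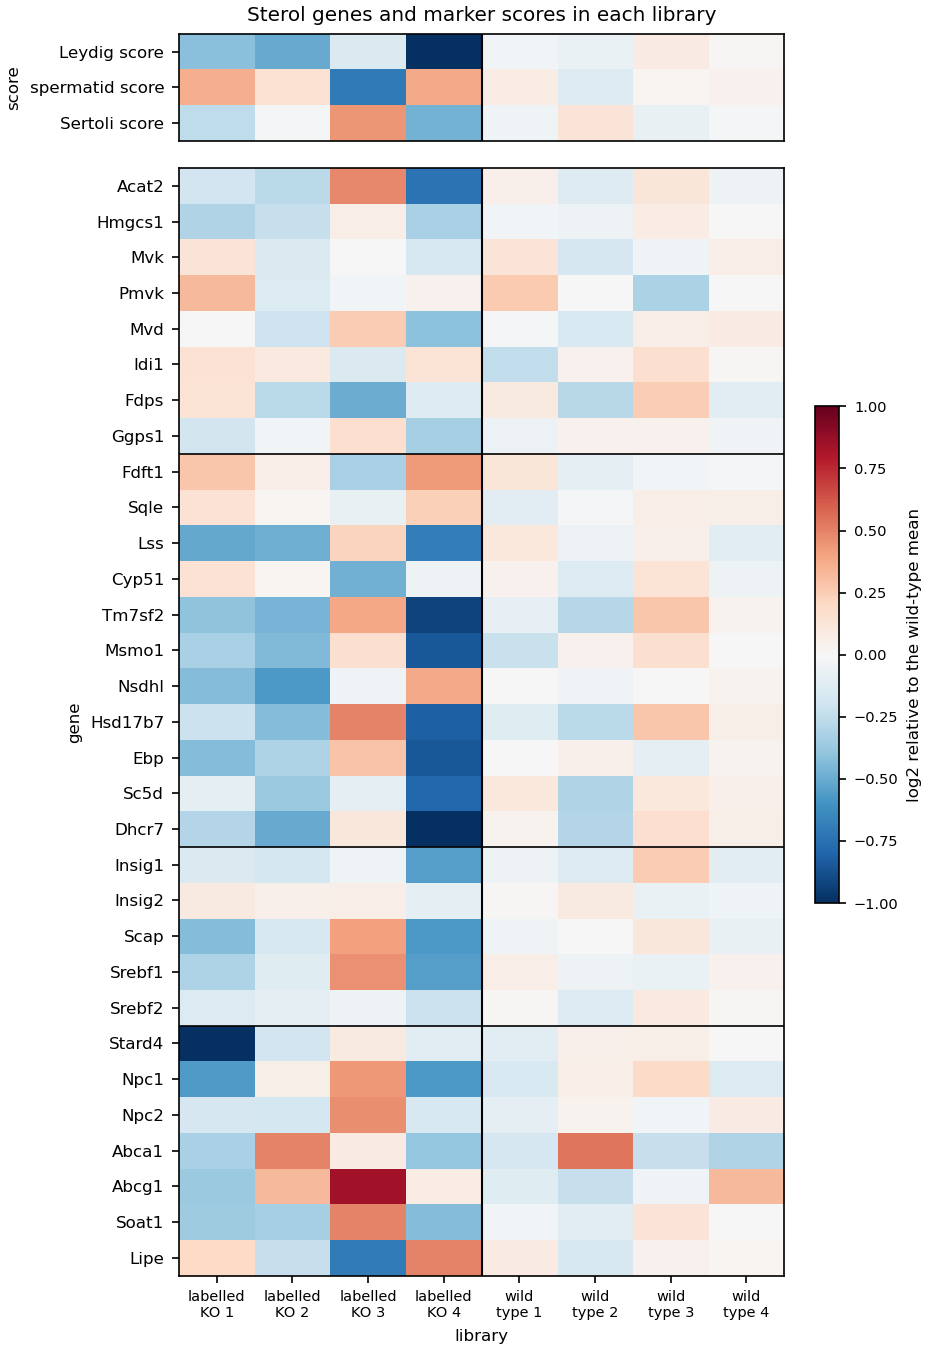
Log2 CPM of each sterol gene in each library relative to the wild-type mean, below the Leydig, spermatid and Sertoli scores on the same scale; colours are capped at -1 and 1. Labelled knockout 3 is red for most genes where labelled knockout 4 is blue, and Fdft1 and Lipe show the reverse.

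To relate the genes to spermatid content, each gene's level was fitted on the spermatid score with the group held in the model. A slope is thus the log2 change in level per unit of score. Of the 31 genes, 16 passed the test (51.6%), against 33.8% of the genes tested outside the markers. Only 3 rose with spermatid content (9.68%, against 18.8%), and 13 fell (41.9%, against 15.0%). Among synthesis genes 2 rose and 8 fell of 19, among SREBP regulators 0 rose and 2 fell of 5, and among transport and storage genes 1 rose and 3 fell of 7. The median slope was -0.33 for synthesis, -0.23 for SREBP control and -0.59 for transport and storage, beside 0.01 for all genes tested; the difference between these groups was not tested. These calls rest on labelled knockout 3, the library with the low score: without it none of the 16 was called, and 1 other gene of the 31 was (Abca1, slope -4.26, SE 0.42, edgeR adjusted p = 0.0429; 0.00452% of the genes tested were called). The slopes of Tm7sf2, Hsd17b7 and Soat1 then turned to 0.20, 0.50 and 0.05. Abca1 was highest in labelled knockout 2 (126 CPM) and wild type 2 (129 CPM). With labelled knockout 3 left out, these 2 libraries had the lowest spermatid scores of their groups, 0.15 and -0.14. How far the Abca1 call rests on them was not tested. Without both libraries farthest from the median score, labelled knockouts 3 and 4, 1 of the 31 was called (0.00439% of the genes tested). Sertoli cell markers moved along the same score, with 9 of 12 falling, as did 5 of 10 spermatogonial and 3 of 13 Leydig markers. Of 12 spermatocyte markers 3 rose and 3 fell, so the score does not stand for germ cells as a whole. Summed Sertoli markers were at 2479 CPM in labelled knockout 3, 1365 to 1989 CPM in the other labelled knockouts and 1851 to 2103 CPM in the wild types. Their part in the slopes was not tested.

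The genes that rose were Fdft1, Cyp51 and Lipe. Fdft1 measured 407, 352, 269 and 452 CPM across labelled knockouts 1 to 4, against 365, 316, 330.0 and 333 across wild types 1 to 4. Labelled knockout 3 was the lowest library and labelled knockout 4 the highest, on both sides of the wild types. The slope was 0.61 (SE 0.10, edgeR adjusted p = 0.00150). Cyp51 had per-library CPM of 115, 106, 75.0 and 101 (labelled knockouts 1 to 4) and 107, 94.8, 115 and 101 (wild types 1 to 4), so that only labelled knockout 3 was below every wild type. Its slope was 0.51 (SE 0.11, edgeR adjusted p = 0.00618). Lipe measured 354, 262, 189 and 434 CPM across labelled knockouts 1 to 4, against 327, 276, 317 and 312 across wild types 1 to 4. It had the widest range of the 3, from labelled knockout 3 to labelled knockout 4, with a slope of 0.94 (SE 0.15, edgeR adjusted p = 0.00120). Fdft1 shares 774 exon bases with Ctsb and Lipe shares 918 with the antisense transcript 4732471J01Rik in the GENCODE M21 models, and the sources used here do not say whether counting used strand.

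The fall was spread over all 4 roles. In the mevalonate steps, Acat2, a cytosolic thiolase that starts the pathway, had per-library CPM of 18.8, 17.8, 29.9 and 12.9 (labelled knockouts 1 to 4) and 22.2, 19.6, 23.3 and 20.7 (wild types 1 to 4). It was highest in labelled knockout 3 and lowest in labelled knockout 4, with a slope of -0.80 (SE 0.19, edgeR adjusted p = 0.00812). Hmgcs1 measured 70.2, 73.7, 90.7 and 69.0 CPM across labelled knockouts 1 to 4, against 85.0, 83.3, 91.2 and 86.2 across wild types 1 to 4. Here labelled knockout 3 was within the wild-type range and the other 3 labelled knockouts were below it, and the slope was -0.33 (SE 0.09, edgeR adjusted p = 0.0171). Ggps1, which makes the geranylgeranyl donor for protein prenylation, had per-library CPM of 15.3, 17.1, 19.6 and 13.8 (labelled knockouts 1 to 4) and 16.7, 18.0, 18.0 and 17.0 (wild types 1 to 4). Its slope was -0.37 (SE 0.13, edgeR adjusted p = 0.0475), the closest to the threshold of the 13.

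In the sterol steps, Lss measured 22.9, 23.4, 38.1 and 20.3 CPM across labelled knockouts 1 to 4, against 35.1, 31.4, 33.8 and 30.4 across wild types 1 to 4. Labelled knockouts 1, 2 and 4 were all below the wild types and labelled knockout 3 was above them. Its slope was -0.73 (SE 0.13, edgeR adjusted p = 0.00209). Ebp, the sterol isomerase encoded on the X chromosome, had per-library CPM of 14.7, 16.0, 24.1 and 11.0 (labelled knockouts 1 to 4) and 19.8, 20.6, 18.6 and 20.3 (wild types 1 to 4), with a slope of -0.80 (SE 0.15, edgeR adjusted p = 0.00301). Here too labelled knockout 3 was above and the other 3 below every wild type. Msmo1, the sterol C4 methyl oxidase, measured 27.9, 25.7, 39.1 and 19.4 CPM across labelled knockouts 1 to 4, against 29.8, 35.9, 39.1 and 34.7 across wild types 1 to 4. Its slope was -0.67 (SE 0.17, edgeR adjusted p = 0.0129), and labelled knockout 4 was the lowest library. Tm7sf2, a sterol reductase of the C14 position, had per-library CPM of 9.78, 9.41, 16.9 and 6.82 (labelled knockouts 1 to 4) and 12.2, 10.6, 15.7 and 13.2 (wild types 1 to 4), with a slope of -0.88 (SE 0.24, edgeR adjusted p = 0.0165). Hsd17b7, the 3-ketosteroid reductase of the pathway, measured 7.80, 6.71, 12.8 and 5.13 CPM across labelled knockouts 1 to 4, against 8.34, 7.50, 11.0 and 9.40 across wild types 1 to 4, with a slope of -0.86 (SE 0.26, edgeR adjusted p = 0.0260). Both had labelled knockout 3 as the highest library and labelled knockout 4 as the lowest.

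Of the regulators, Scap had per-library CPM of 30.5, 36.8, 54.7 and 27.7 (labelled knockouts 1 to 4) and 39.9, 41.2, 44.6 and 39.0 (wild types 1 to 4). Labelled knockout 3 was above and the other 3 below every wild type, and the slope was -0.80 (SE 0.12, edgeR adjusted p = 0.00076). Srebf1, which encodes SREBP1, measured 18.6, 21.2, 31.6 and 15.7 CPM across labelled knockouts 1 to 4, against 24.2, 22.2, 22.0 and 23.8 across wild types 1 to 4, with a slope of -0.75 (SE 0.14, edgeR adjusted p = 0.00267). Its labelled knockouts lay on the same sides of the wild types as those of Scap. Srebf2, which encodes the SREBP that chiefly drives sterol genes, had per-library CPM of 49.7, 51.4, 52.8 and 47.1 (labelled knockouts 1 to 4) and 55.3, 49.9, 58.6 and 55.1 (wild types 1 to 4), and its slope of -0.08 (SE 0.11, edgeR adjusted p = 0.599) did not pass. Insig2 measured 70.6, 68.7, 69.5 and 61.9 CPM across labelled knockouts 1 to 4, against 67.0, 70.4, 63.3 and 64.4 across wild types 1 to 4, also without a called slope. Insig2 had the highest level per kb of the 5 regulators.

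In storage and transport, Soat1, the enzyme that makes cholesteryl esters, had per-library CPM of 62.1, 63.1, 112 and 58.6 (labelled knockouts 1 to 4) and 77.9, 73.4, 86.7 and 79.4 (wild types 1 to 4). Labelled knockout 3 was above and the other 3 below every wild type, whereas for Lipe labelled knockout 3 was the lowest library and labelled knockout 4 the highest, and the slope was -0.80 (SE 0.12, edgeR adjusted p = 0.00086). The ratio of the CPM of Lipe to that of Soat1 was 5.70, 4.16, 1.69 and 7.41 in labelled knockouts 1 to 4 and 3.66 to 4.19 in the wild types. This ratio is not per length, and only its change between libraries can be read. Npc2 measured 58.3, 58.3, 90.6 and 58.7 CPM across labelled knockouts 1 to 4, against 61.4, 67.2, 64.6 and 69.6 across wild types 1 to 4, with a slope of -0.59 (SE 0.10, edgeR adjusted p = 0.00132). Npc1, which had per-library CPM of 5.45, 8.44, 11.0 and 5.42 (labelled knockouts 1 to 4) and 7.27, 8.49, 9.26 and 7.35 (wild types 1 to 4), had a slope of -0.86 (SE 0.22, edgeR adjusted p = 0.0126). Both partners were highest in labelled knockout 3.

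**Figure D4:**
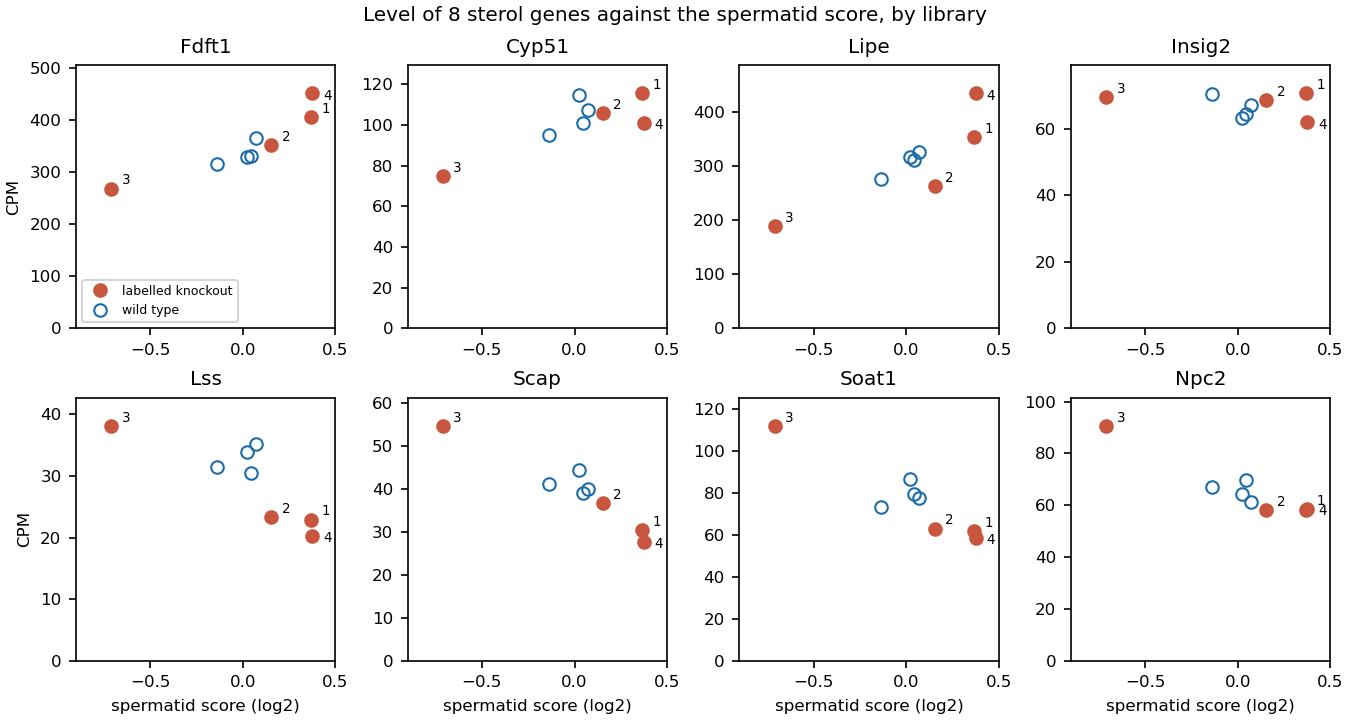
CPM of 8 sterol genes against the spermatid score, 1 point per library, with labelled knockouts and wild types marked apart. The library at a score of -0.71 is labelled knockout 3, which lies apart from the other 7 libraries.

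When both scores were put in one fit, 7 of the 31 genes had a called slope on the spermatid score, against 3828 of 21805 genes tested (17.6%). Whether the sterol genes were called more often than other genes was not tested, and the calls over all genes were not split by direction. The fit with both scores was not repeated without the library of lowest spermatid score, so how far its calls rest on that library was not tested. Cyp51 (0.71), Lipe (0.69) and Fdft1 (0.48) rose, and Stard4 (-1.15), Soat1 (-0.65), Scap (-0.62) and Npc2 (-0.60) fell. Stard4 encodes a carrier that moves sterol between membranes, and it had not passed on the spermatid score alone.

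Slopes on the Leydig score were mostly positive, with no call. Of the 31 genes edgeR called 0, against 0.0688% of the genes tested outside the markers (0.0184% higher and 0.0505% lower), while 18 (58.1%) had an unadjusted p under 0.05, against 23.1%, 16 of them with a positive slope. That count was 10 of 31 without labelled knockout 3, against 2209 of 22131 genes tested (9.98%). With both scores in one fit it was 9 of 31, against 2050 of 21805 (9.40%). The share among the 31 was the higher in both, and this difference was not tested. DESeq2 called 12, 11 of them higher, against 6.06% of the genes tested, and limma-voom called 0. The median slope was 0.53 for synthesis, 0.68 for SREBP control and 0.61 for transport and storage, beside 0.01 for all genes tested. The call depended on labelled knockout 1: without it 16 of the 31 passed, 14 of them with a positive slope, against 21.7% of the genes tested, and without labelled knockout 2, 2 passed. The smallest adjusted p with all libraries was that of Dhcr7, which had per-library CPM of 27.6, 23.8, 36.5 and 16.0 (labelled knockouts 1 to 4) and 34.6, 27.6, 37.9 and 35.1 (wild types 1 to 4). Labelled knockout 4, with the lowest Leydig score, was the lowest library, and the slope was 1.43 (SE 0.23, edgeR adjusted p = 0.0568). Acat2 had a slope of 1.36 (SE 0.25, edgeR adjusted p = 0.0638), Msmo1 of 1.16 (SE 0.23, edgeR adjusted p = 0.0828) and Tm7sf2 of 1.54 (SE 0.32, edgeR adjusted p = 0.0828). Hsd17b7 had the steepest slope, 1.57 (SE 0.34, edgeR adjusted p = 0.0923). On the negative side, Lipe had -1.18 (SE 0.33, edgeR adjusted p = 0.121) and Fdft1 -0.75 (SE 0.25, edgeR adjusted p = 0.148). Sertoli markers also had positive slopes on the Leydig score, 12 of 12, with 8 at an unadjusted p under 0.05, as did peritubular and stromal markers in 9 of 10, with 7 at that p. Elongating spermatid markers had negative slopes in 12 of 12, with 10 at that p, and round spermatid markers in 12 of 12, with 2. These cell types cannot be told apart along the score, for the genes with positive slopes or for Lipe and Fdft1.

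**Figure D5:**
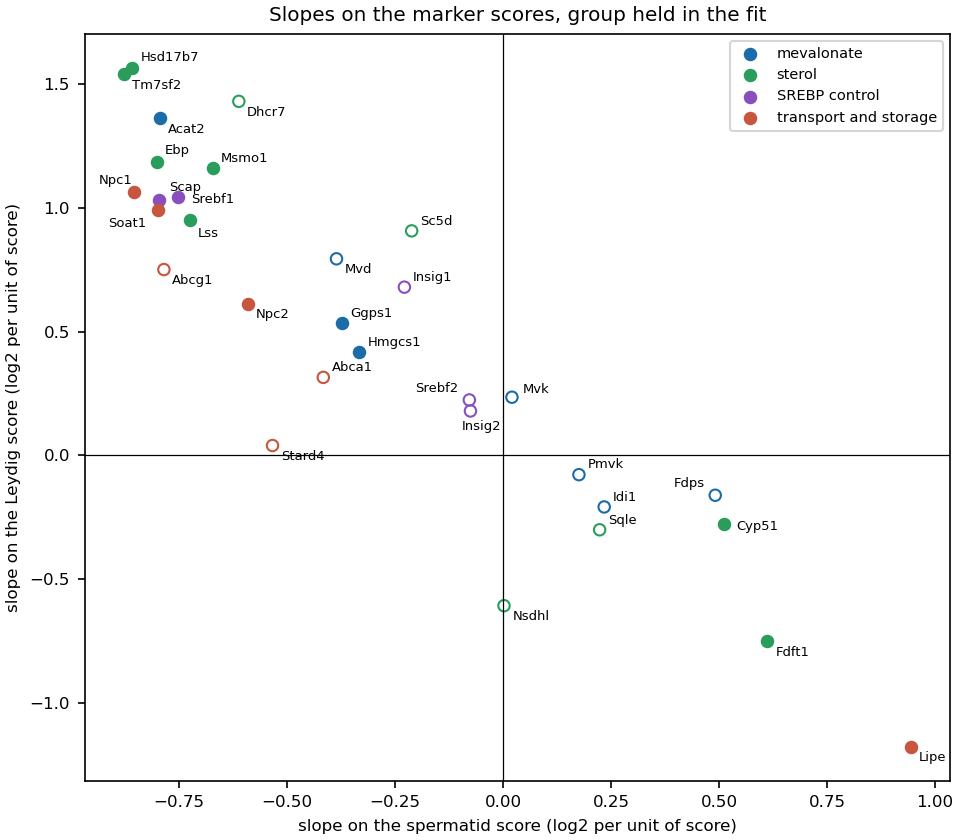
Slope of each sterol gene on the spermatid score against its slope on the Leydig score (log2 per unit of score, group held in each fit); filled points passed the spermatid test, and no gene passed the Leydig test. Lipe and Fdft1 lie at the lower right and most synthesis, SREBP and storage genes at the upper left; both slopes come from the same 8 libraries.

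The remaining genes had no call by edgeR on either score over all 8 libraries with 1 score in the fit; DESeq2 called 1 of them, Sc5d, on the Leydig score. Sqle measured 117, 108, 101 and 126 CPM across labelled knockouts 1 to 4, against 98.4, 105, 111 and 111 across wild types 1 to 4. Idi1, the isomerase that makes the reactive isoprene unit, had per-library CPM of 33.1, 32.0, 27.1 and 32.9 (labelled knockouts 1 to 4) and 25.3, 30.8, 33.4 and 30.3 (wild types 1 to 4). Both had positive spermatid slopes, of 0.22 and 0.23. Abca1, which exports cholesterol to lipoproteins, measured 71.3, 126, 94.4 and 68.5 CPM across labelled knockouts 1 to 4, against 79.4, 129, 76.0 and 72.5 across wild types 1 to 4. It was high in number 2 of both groups and its log2 fold change between the groups was 0.01 (SE 0.23). Nsdhl, an X-linked dehydrogenase of the C4 demethylation steps, had per-library CPM of 12.3, 11.1, 16.1 and 21.6 (labelled knockouts 1 to 4) and 16.5, 16.1, 16.6 and 16.9 (wild types 1 to 4). It was highest in labelled knockout 4, where Msmo1 and Hsd17b7 of the same steps were lowest. Stard4 measured 8.16, 15.1, 18.4 and 16.0 CPM across labelled knockouts 1 to 4, against 16.0, 17.9, 18.0 and 17.2 across wild types 1 to 4, and it was lowest in labelled knockout 1. The others were the mevalonate kinases Mvk and Pmvk, the decarboxylase Mvd, Fdps, the desaturase Sc5d, Insig1 and Abcg1. They had group log2 fold changes from -0.31 (Sc5d) to 0.28 (Abcg1). Fdps shares exon sequence with the readthrough transcript Gm43738 and has near-identical processed copies, so its counts are uncertain. Idi1 also has a processed copy of 100% identity. Reads could be shared as well between Tm7sf2 and Vps51 (532 exon bases on the same strand, with total counts of 1991 and 4624). Opposite-strand overlaps with genes of higher or similar count were Ggps1 with Arid4b (257 exon bases), Npc1 with Rmc1 (511), Cyp51 with Akap9 (166) and Srebf1 with Rai1 (109).

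Genes of the same pathway outside the 31 were read from 5 lists. No gene of the 68 tested (of 70 listed) was called between the groups, and 2 had an unadjusted p under 0.05. Along the spermatid score 23 of 68 passed (33.8%, the same as the 33.8% of all genes), 10 higher and 13 lower. Over all genes tested, 18.8% were higher and 15.0% lower. Ester and droplet storage had 5 of 14 higher and 0 lower, including Plin2, a coat protein of lipid droplets, at 0.85 (edgeR adjusted p = 0.0016) and Abhd5, the activator of triglyceride lipase, at 0.75 (0.0005). Uptake and trafficking had 2 of 23 higher and 6 lower, including Lrp8, a lipoprotein receptor, at -0.73 (0.0002) and Gramd1a, a sterol transporter at membrane contacts, at -0.85. SREBP processing had 2 of 12 higher, Rnf139 at 0.78 and Ufd1 at 0.47, and 4 lower, including Mbtps1, the first protease that cleaves SREBP, at -0.69. Isoprenoid branches had 1 of 12 higher and 2 lower, and sterol synthesis outside the 31 had 0 of 7 higher and 1 lower, Erg28 at -0.48. Without labelled knockout 3 the calls along this score over all genes fell to 1 of 22131.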

How the data were processed

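Per the labels' protocols, RNA of adult testes was isolated by TRIzol, cleared of DNA with DNase and prepared for sequencing with a TruSeq kit. The authors deposited raw read counts per gene in all 8 libraries; Trimmomatic, STAR, featureCounts and DESeq2 and the builds GRCm39 and mm39 are named in the submitters' processing notes, without versions or a strand setting. Symbols were matched for 52073 of 56748 identifiers. The 8 columns were tested with edgeR 4.0.16 (R 4.3.3), TMM scaling, filterByExpr (minimum count 10) and Benjamini-Hochberg adjustment over all 21805 genes tested, with a threshold of 0.05. The slope models were group plus score. SE is the size of the log2 value over the root of its F statistic. CPM are TMM-scaled counts over the tested genes. Levels per kb use GENCODE M21 exon lengths (GRCm38), and no coordinates were converted. Promoters are from RefSeq (GRCm38.p6). Other tools were DESeq2 1.42.0 and limma 3.58.1. The scripts were tested on simulated data. No pair of libraries of the same group agreed within sampling noise (lowest chi-square per gene 4.61), and pairs across the groups were not checked. The 31 genes and all lists were chosen with earlier results of these data known. All 31 genes were named; values for every library are given where a gene passed a test or was among the 3 most abundant of its role. The added alternative without the 2 libraries farthest from the median score was chosen after seeing the data. The closing section gives the alternatives, apart from some that were also run. These were RLE size factors, slopes without the group term, and round or elongating spermatid markers alone. A Leydig score without Hsd3b1 and Sult1e1 was also run. They called 15 or 16 of the 31 along the spermatid score, beside 16 in the main fit, and 0 along the Leydig score.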

Additional observations from a re-analysis of the deposited data

Results flagged for a closer look

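Within each group of 4 libraries, Dixon's test on the CPM of the 31 genes (62 groups, at its 95% critical value) picked out 4 values in 2 libraries, and chance flags about 5% of groups. In wild type 2, Sc5d, the sterol C5 desaturase, was at 23.0 CPM, lower than the other wild types. Also in wild type 2, Abca1 was at 129 CPM, higher than the other wild types, and labelled knockout 2 was likewise high at 126 CPM. In labelled knockout 3, Npc2 was at 90.6 CPM and Soat1 was at 112 CPM, both above every other library of that group. Labelled knockout 3 also had the lowest spermatid score and the highest summed epididymis markers; their part in these values was not tested.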

How the results depend on the processing

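Among the 31 genes, no setting called a group difference. With limma-voom and sample quality weights, 12 of the 31 had an unadjusted p under 0.05 between groups, beside 0 in the main fit. The share of all genes at that p was not computed for that setting. Over all genes, 4 were higher and 0 lower between groups; without the filter this was 16 and 10, with DESeq2 23 and 23, with limma-voom and sample quality weights 9 and 5, with the Leydig score as covariate 7 and 11, with the spermatid score 10 and 18, with both 24 and 19, and with 1 library left out 3 to 23 and 0 to 24. Along the Leydig score 0 of the 31 were called higher and 0 lower, and this was 8 and 1 without the filter, 2 and 0 with a mean of at least 1 CPM, 11 and 1 with DESeq2, and 0 to 14 and 0 to 2 with 1 library left out. Along the spermatid score 3 were higher and 13 lower. Lower calls numbered 7 with quality weights (17.5% of all genes were called in either direction), 3 with a replicate block, 4 with both scores, 1 without the 2 libraries farthest from the median (where higher calls were 0), and 1 to 14 with 1 library left out (higher calls 0 to 3). The median log2 difference between groups moved for synthesis from -0.12 to 0.13 with the Leydig covariate and 0.089 with both scores, for transport and storage from 0.01 to 0.32 with the Leydig covariate, and for SREBP control from -0.12 to 0.12 and 0.13. With 1 library left out the medians were -0.21 to -0.07, -0.18 to 0.03 and -0.29 to -0.02, and the Ak9 log2 fold change was -0.69 to -0.24. Without the 2 farthest libraries the spermatid slopes reversed to 0.61 for Acat2, 0.19 for Lss, 0.98 for Tm7sf2, 1.27 for Hsd17b7 and 0.29 for Soat1; with 1 library left out they ran from -1.10 to 0.20 for Tm7sf2, -1.14 to 0.50 for Hsd17b7 and -0.91 to 0.048 for Soat1, the positive ends without labelled knockout 3. The cause was not tested. Among values not called in the main fit, the sign changed in 74 group, 29 Leydig and 35 spermatid alternatives. The alternatives over all 31 genes, called ones included, numbered 558, 589 and 620. The replicate numbers share only a number. For each gene's deviation from its group mean, correlations of same-numbered libraries were -0.03 to 0.09. By that measure 2 of 4 labelled knockouts correlated best with their own number, so the block was not used as pairing. With the replicate block 5 of the 31 were called along the spermatid score, against 2185 of all 21805 genes. Cyp51 and Lipe were higher and Soat1, Lss and Npc2 lower. Along the Leydig score that block gave 7 of the 31 an unadjusted p under 0.05, against 1280 of 21805 genes (5.87%). Single genes with few reads, such as Abcg1, had the widest errors.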

Other observations

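Ratios between enzymes of the squalene and sterol steps differed between libraries, for pairs chosen after their values were seen because they had slopes of opposite sign. The ratio of the CPM of Fdft1 to that of Lss was 17.8, 15.1, 7.06 and 22.3 in labelled knockouts 1 to 4 and 9.76 to 10.9 in the wild types. The ratio of Cyp51 to Lss was 5.04, 4.53, 1.97 and 4.97 in labelled knockouts 1 to 4 and 3.02 to 3.39 in the wild types. Both ratios were lower in labelled knockout 3 than in any wild type and higher in labelled knockouts 1, 2 and 4. They are not per length, and no test was made.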
